A study of Mus musculus with 5 samples.

Results

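Heat shock proteins and chaperones are the proteins that help other proteins fold, assemble and refold. The members were taken by gene symbol from the deposited count table and comprised the Hsp70, Hsp90, Hsp110, Hsp60 and small heat shock protein genes, the J proteins (Dnaja, Dnajb and Dnajc), the subunits of the TRiC ring (Tcp1 and the Cct genes), the heat shock factors Hsf1 and Hsf2, and Bag1 to Bag6. The rule found 92 of the 24084 genes in the table. Messenger RNA of regulatory T cells (Tregs), the Foxp3-expressing T cells that restrain immune responses, had been sequenced from skin (2 libraries) and from skin-draining lymph nodes (3 libraries). All 5 libraries came from mice aged 13 days of a strain given as Foxp3-DTR, and as Foxp3-DTR/GFP in the series' design text, so both groups carry the modified Foxp3 locus and differ in tissue. The labels name no sorting gate, no digestion of the skin, no cell number and no number of animals per library. The p-values below therefore measure the spread between libraries, which may be technical, and fewer cells of a type and less RNA per cell cannot be told apart in such bulk samples.

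Hsp70 proteins bind exposed hydrophobic stretches of unfolded proteins in a cycle driven by ATP. J proteins deliver the clients and speed up ATP hydrolysis, whereas BAG proteins and Hsp110 proteins help release the nucleotide. Hsp90 finishes the folding of kinases and hormone receptors, and the TRiC ring encloses actin and tubulin while they fold. Part of this set is made at all times, another part is switched on by heat shock factor 1 when unfolded proteins build up in the cytosol, and a further part answers unfolded proteins in the endoplasmic reticulum (ER). Heat shock genes, the inducible Hsp70 genes above all, are also known to respond when tissues are warmed and digested to free cells for sorting.

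Counts assigned to genes ranged from 10468795 to 10787378 in the skin libraries and from 12305644 to 14595018 in the lymph node libraries, and genes with at least 1 count from 9192 to 9894 in skin and from 12173 to 12540 in lymph node. Values are CPM, that is counts relative to the size of each library after TMM scaling, which evens out differences in composition, and fold changes are skin over lymph node, with the standard error (SE) that edgeR's quasi-likelihood test implies. The skin libraries differed from each other by more than 4-fold in 37.7% of all genes tested, against 7.83 to 8.18% for pairs of lymph node libraries. The 8 T cell and Treg markers were detected in both groups, with summed levels of 9092 and 10000.3 CPM in skin and from 8411 to 9956 CPM in lymph node. These sums held shifts in both directions. Ctla4 and Ikzf2 rose in skin, and Foxp3 and Il2ra overlapped. In the other 4 (Cd3d, Cd3e, Cd3g and Cd4) both skin values lay below every lymph node value. Their log2 fold changes were -0.90, -0.83, -0.76 and -0.43 in that order, and 0 of the 8 fell by edgeR's test. The similar sums therefore do not show equal T cell content. The 19 myeloid markers in the table summed to 2246 and 3105 CPM in skin and to between 401 and 699.8 CPM in lymph node. Without Ctss, which made up most of the lymph node sum, they summed to 1818 and 2637 CPM in skin and to between 14.7 and 32.0 CPM in lymph node. Of the 19, 1 had no count in skin and 7 had none in lymph node. The 12 keratinocyte markers summed to 209 and 289 CPM in skin and to between 18.2 and 24.2 CPM in lymph node, with 3 and 5 of them without a count in skin and in lymph node. Of the myeloid markers 7 of 15 tested rose in skin, and 1 of 7 keratinocyte markers did (Krt14). The 5 B cell markers summed to 22.1 and 72.3 CPM in skin and to between 79.3 and 214 CPM in lymph node, with 4 of them without a count in skin. The 10 fibroblast and endothelial markers summed to 73.7 and 4.79 CPM in skin and to between 352 and 500.2 CPM in lymph node, nearly all of it Pecam1, and without Pecam1 to 17.8 and 1.90 CPM in skin and to between 0.204 and 1.12 CPM in lymph node. The part of other cell types in the chaperone values was not tested.

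Of the 92 members, 79 had enough counts to be tested, 7 had no count in any library and 6 had at most 54 counts in total. In skin, 1 member rose (Hspa1a, the stress-inducible Hsp70), 3 fell (Bag2, Dnajb12 and Dnajc17), and 75 did not pass edgeR's quasi-likelihood test at an adjusted p of 0.05. The shares were 1.27% higher and 3.80% lower, against 2.40% higher and 5.30% lower among all 11437 genes tested, so the chaperone genes were called no more often than genes at large. Both skin values lay above every lymph node value for 6 members and below for 24, that is 7.59% and 30.4% of the tested members, against 16.8% and 33.5% of all genes tested. The remaining 49 overlapped. The median log2 fold change was -0.14 over the 79 tested members and -0.21 over all genes tested.

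**Figure D1:**
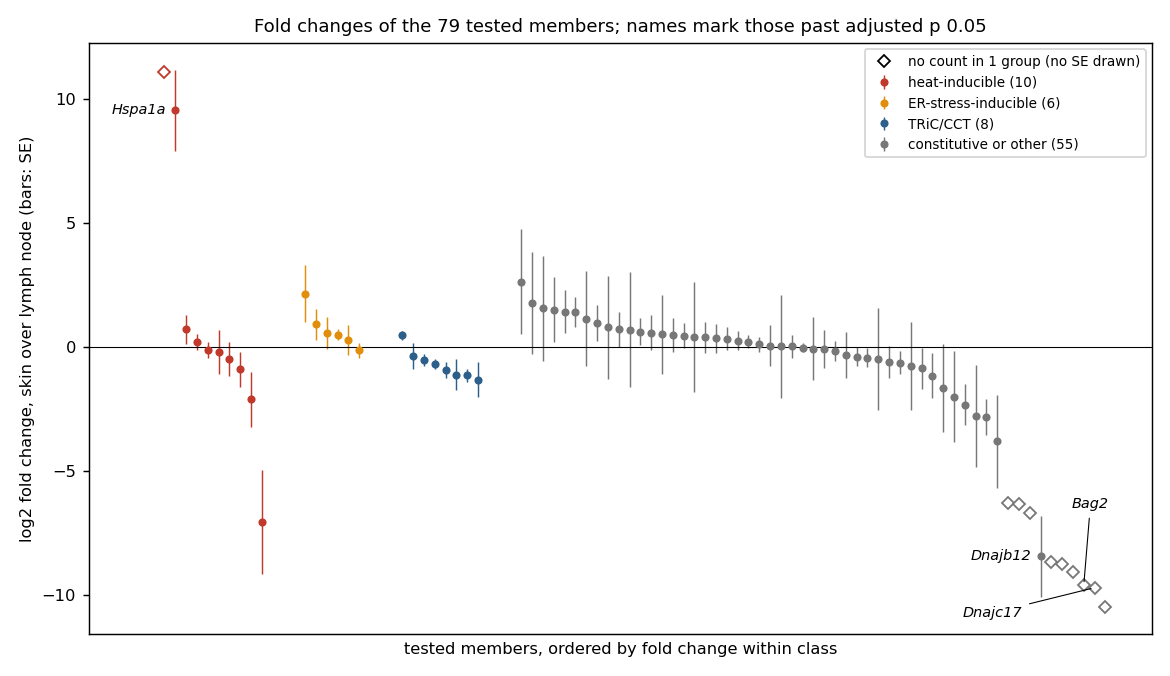
The vertical axis gives edgeR's log2 fold change, skin over lymph node, with its SE, for the 79 tested members grouped into heat-inducible, ER-stress-inducible, TRiC and other genes. Names mark the 4 members past the threshold, and open diamonds mark genes without a count in 1 group, whose fitted value depends on the prior count and is no bound. Hspa1a and Hspa1b lie far above 0, and a tail of J protein and BAG genes lies far below.

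The stress-inducible members were separated from the others with lists drawn up from textbook knowledge. The heat-inducible list held 12 genes, of which 10 could be tested, with 1 higher, 0 lower, and a median log2 fold change of -0.18. The ER-stress-inducible list held 6 genes, of which 0 passed the test, 5 had positive fold changes, and the median was 0.53. The other 74 members, of which 63 could be tested, held the 3 that fell, with a median of -0.32. Summed over the lists, the heat-inducible genes reached 384 and 471 CPM in skin and from 351 to 446 CPM in lymph node, and these ranges overlapped. The ER-stress-inducible genes summed to 1961 and 1825 CPM in skin and to between 1594 and 1856 CPM in lymph node, also with overlap. The other members summed to 8616 and 9543 CPM in skin and to between 10664 and 11485 CPM in lymph node, without overlap. That class includes the 8 TRiC genes, which alone summed to 3557 and 3689 CPM in skin and 5823, 5503 and 5750 CPM in lymph node. The lower sum in skin therefore cannot be read as one of constitutive chaperones in general.

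The 2 genes of the classical inducible Hsp70, Hspa1a and Hspa1b, stood apart from the rest of the heat-inducible list. Hspa1a had 201 and 335 counts in skin and 0, 1 and 0 counts in lymph node. These were 18.8 and 33.5 CPM in skin and 0, 0.0784 and 0 CPM in lymph node, so both skin libraries held the transcript and lymph node libraries 1 and 3 held no count of it. The level averaged 26.1 ± 10.4 CPM in skin (SD, n = 2), against 0.0261 ± 0.0453 CPM in lymph node (SD, n = 3). The log2 fold change was 9.55 (SE 1.64, adjusted p 0.0452 by edgeR's quasi-likelihood test with Benjamini-Hochberg adjustment). The ratio of skin to lymph node, which rests on 1 lymph node count, was 1080.1 with a 95% counting interval of 193 to 42742.

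Hspa1b had 57 and 383 counts in skin and 0, 0 and 0 counts in lymph node, or 5.33 and 38.2 CPM in skin. The groups did not overlap, but the skin libraries differed widely, with 21.8 ± 23.3 CPM (SD, n = 2). Set against the limit that a count of 0 over the lymph node group allows (3 counts, 0.0719 CPM), its level was at least 303-fold higher in skin, but its adjusted p of 0.0603 did not pass the threshold. Per kilobase of exon, Hspa1a averaged 8.81 CPM and Hspa1b 7.77 CPM in skin, below the constitutive Hsp70 gene Hspa8 at 44.7 CPM per kilobase in skin.

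Both genes lie side by side in the major histocompatibility complex region on the minus strand of mm10, Hspa1a at chr17:34969190-34972156 and Hspa1b at chr17:34956436-34959238. Their coding sequences of 1926 and 1929 bases are near copies, with 11 of 1929 aligned positions different, 99.4% identity and a longest identical run of 638 bases. Of the 50-base stretches of Hspa1a transcripts, 66.3% occur in another gene, most of them in Hspa1b, and of those of Hspa1b 62.3% occur in Hspa1a. Reads from the shared stretches align to both genes, and reads without a unique alignment were not assigned to genes. The counts of both therefore cover only part of either transcript, in skin and lymph node alike. How the unassigned reads divide between Hspa1a and Hspa1b is unknown. Hspa1a also overlaps Gm20481 on the other strand, and no source used here gives the strand setting of the counting.

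The DNA upstream of the start sites is shown because it carries the element that heat shock factors read, and because it differs between the pair by almost nothing. Heat shock factor 1 binds units of GAA in alternating orientation, and the search was for GAANNTTC or TTCNNGAA, each of which is its own reverse complement and so stands for both strands. The sequences come from RefSeq on GRCm38.p6, run 5′ to 3′ on the gene's strand up to the base before the start site, and show the element in capitals. In Hspe1 the capitals cover several overlapping matches, 89 to 72 bases upstream of the start. Hspa1a is at chr17:34972157-34972286 (minus), Hspa1b at chr17:34959239-34959368 (minus), Dnaja1 at chr4:40722338-40722467 (plus), Hsph1 at chr5:149636316-149636445 (minus) and Hspe1 at chr1:55088018-55088147 (plus).
Hspa1a: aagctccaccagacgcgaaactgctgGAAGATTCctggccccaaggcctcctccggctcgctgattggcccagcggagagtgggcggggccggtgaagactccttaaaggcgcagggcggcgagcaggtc
Hspa1b: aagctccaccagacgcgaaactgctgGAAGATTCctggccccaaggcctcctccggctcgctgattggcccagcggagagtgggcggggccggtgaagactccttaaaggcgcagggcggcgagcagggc
Dnaja1: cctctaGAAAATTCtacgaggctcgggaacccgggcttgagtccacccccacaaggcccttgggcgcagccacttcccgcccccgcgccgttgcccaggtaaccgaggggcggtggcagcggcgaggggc
Hsph1: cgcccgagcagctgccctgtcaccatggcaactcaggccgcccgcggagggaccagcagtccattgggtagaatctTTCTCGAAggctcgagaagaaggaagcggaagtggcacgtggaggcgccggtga
Hspe1: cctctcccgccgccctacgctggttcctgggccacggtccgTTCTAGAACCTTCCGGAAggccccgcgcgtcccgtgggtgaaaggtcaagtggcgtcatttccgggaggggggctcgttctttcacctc

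The element lies 104 to 97 bases upstream of the start in both Hspa1a and Hspa1b, whose 250 upstream bases differ at 3 positions, 1 of them in the stretch shown. Promoters were found for 75 members, and in their 250 upstream bases the pair of units occurred in 17 (22.7%), against 3932 of 27025 promoters in all (14.5%). Among the heat-inducible genes it occurred in 8 of 11 (72.7%), namely Hspa1a, Hspa1b, Hsph1, Dnajb4, Dnaja1, Hspb1, Hspd1 and Hspe1. Hspd1 and Hspe1 are neighbours on opposite strands, and their matches are the same stretch of DNA. With the near copies Hspa1a and Hspa1b, the 8 genes are thus not 8 independent sites, which raises the share. It occurred in 1 of 6 ER-stress-inducible genes (Dnajc10), and in 8 of the 58 members on neither list (13.8%). A run of 3 alternating units, which contains the shorter form, was present in Hspd1, Hspe1 and Dnajb6 and in 0.514% of all promoters. Here too Hspd1 and Hspe1 share the same stretch. These matches describe letters in a window and no binding. Of the 8 heat-inducible genes with the element, Hspa1a passed the test and Hspb1 could not be tested.

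Apart from Hspa1a and Hspa1b, 8 heat-inducible genes were tested and 0 passed edgeR's test (1 at an unadjusted p under 0.05). Of these, 2 had positive and 6 negative fold changes, and the median was -0.35. In 0 of them (against 16.8% of all genes tested) both skin values lay above the lymph node values, and in 3, or 37.5% (against 33.5%), both lay below. Dnajb1, the main J protein partner of inducible Hsp70, had 15.8 and 60.2 CPM in skin and 33.6, 74.6 and 24.1 CPM in lymph node. Both ranges overlapped (log2 fold change -0.21, SE 0.88, adjusted p 0.910). Hsph1, an Hsp110 protein that exchanges the nucleotide of Hsp70, had 54.8 and 22.0 CPM in skin and 59.5, 65.8 and 35.7 CPM in lymph node. Those groups overlapped as well (log2 fold change -0.48, SE 0.67, adjusted p 0.704). Hsp90aa1, the inducible cytosolic Hsp90, had 44.7 and 86.5 CPM in skin and 53.9, 31.7 and 34.5 CPM in lymph node. Skin library 2 was the highest of the 5, and skin library 1 lay within the lymph node range (log2 fold change 0.71, SE 0.59, adjusted p 0.494).

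Dnaja1, a J protein with a farnesyl anchor, had 121 and 103 CPM in skin and 105, 86.5 and 101 CPM in lymph node (log2 fold change 0.20, SE 0.32, adjusted p 0.750). Hspd1 and Hspe1 encode the mitochondrial Hsp60 cage and its Hsp10 lid. Hspd1 had 96.9 and 111 CPM in skin and 132, 100.3 and 111 CPM in lymph node. Hspe1 had 22.6 and 15.7 CPM in skin and 50.6, 24.7 and 32.1 CPM in lymph node, so its skin values lay below all lymph node values (log2 fold change -0.91, SE 0.72, adjusted p 0.477). Dnajb4, another cytosolic partner of Hsp70, also had both skin values below the lymph node range, at 2.15 and 1.60 CPM in skin and 10.5, 11.3 and 2.72 CPM in lymph node (log2 fold change -2.11, SE 1.12, adjusted p 0.281).

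Bag3, which couples Hsp70 to small heat shock proteins and to autophagy, is a heat shock factor target like Hspa1a but had lower values in skin. It had 1 and 0 counts in skin and 13, 163 and 139 counts in lymph node, or 0.0936 and 0 CPM in skin and 0.913, 12.8 and 9.44 CPM in lymph node. The groups did not overlap, and lymph node library 1 was low among its group. The lymph node level was 156 times the skin level, with a 95% counting interval of 27.9 to 6193, and the adjusted p of 0.0872 did not pass. The small heat shock proteins Hspb1 and Hspb8, which hold unfolded proteins until Hsp70 takes them, were too low to test. Hspb1 had 13 and 0 counts in skin and 0 in every lymph node library, and Hspb8 had 2 and 0 counts in skin and 0 in every lymph node library.

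**Figure D2:**
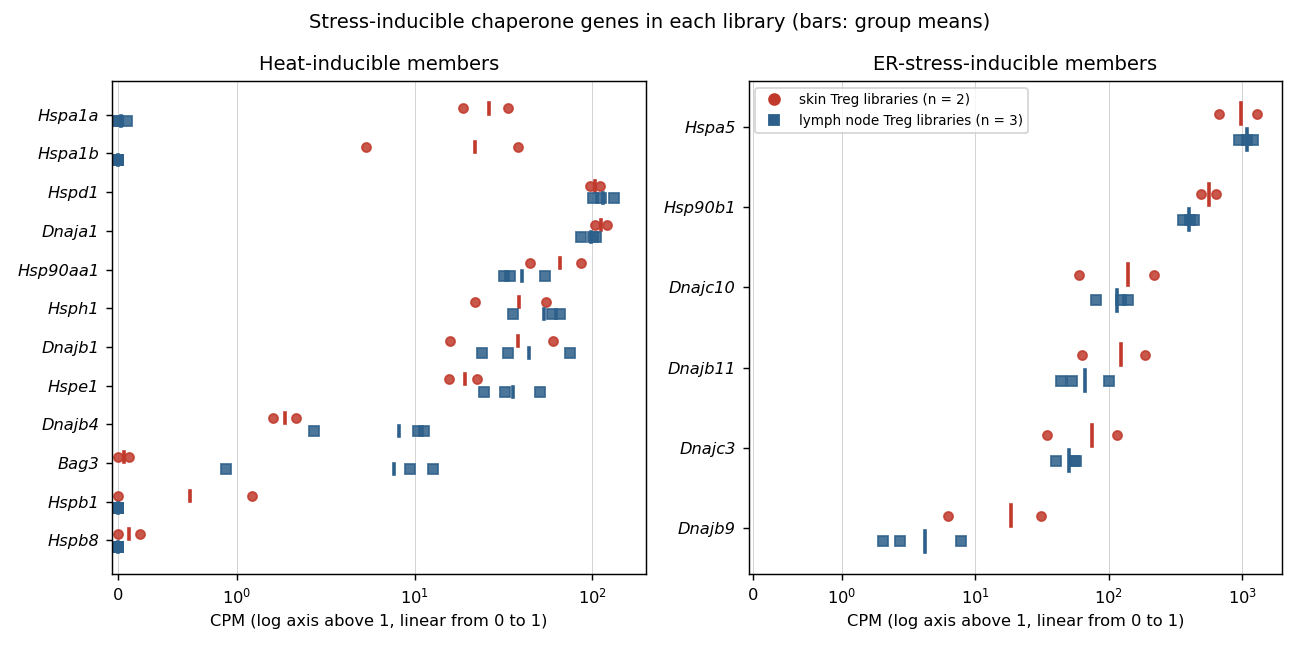
The horizontal axes give CPM on a log axis above 1 and a linear one from 0 to 1, for the 12 heat-inducible genes and the 6 ER-stress-inducible genes, with skin libraries as circles, lymph node libraries as squares and group means as bars. Hspa1a and Hspa1b are at or near 0 in lymph node, Bag3 and Dnajb4 lie lower in skin, and the ER genes overlap except Hsp90b1.

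Of the 6 genes on the ER-stress-inducible list, 0 passed edgeR's test at an adjusted p of 0.05 (0 at an unadjusted p under 0.05). Hspa5, the ER Hsp70 known as BiP, had 1280.2 and 669.8 CPM in skin and 1085, 945 and 1198 CPM in lymph node. The skin libraries lay on either side of the lymph node range (log2 fold change -0.14, SE 0.31, adjusted p 0.826). Hsp90b1, the ER Hsp90 known as GRP94, which folds integrins and Toll-like receptors, had 494 and 632 CPM in skin and 404, 363 and 433 CPM in lymph node. Skin was higher in every library, but the gene did not pass the test (log2 fold change 0.49, SE 0.21, adjusted p 0.198).

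The 4 J proteins of this list differed widely between the skin libraries. Dnajb9, which represses the stress sensor IRE1 through BiP, had 30.9 and 6.19 CPM in skin and 2.74, 7.76 and 2.04 CPM in lymph node. Skin library 1 exceeded every lymph node library and skin library 2 did not (log2 fold change 2.15, SE 1.15, adjusted p 0.288). Dnajb11, which works with BiP in the lumen, had 62.9 and 185 CPM in skin and 52.7, 101 and 44.2 CPM in lymph node (log2 fold change 0.91, SE 0.63, adjusted p 0.415). Dnajc3, an inhibitor of the kinase PERK, had 34.3 and 115 CPM in skin and 56.7, 54.5 and 40.2 CPM in lymph node (log2 fold change 0.56, SE 0.65, adjusted p 0.637). Dnajc10, a disulfide reductase that serves ER degradation, had 59.4 and 217 CPM in skin and 79.9, 123 and 139 CPM in lymph node (log2 fold change 0.28, SE 0.61, adjusted p 0.826). In these 3 genes skin library 2 was the highest library.

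The ER stress element is shown for the genes of this list that hold it. It joins CCAAT and CCACG with 9 bases between them and was searched on both strands of the 250 upstream bases. It was present in Hspa5, Hsp90b1 and Dnajc3, that is 3 of 6 genes, in 0 of 11 heat-inducible genes, in 0 of 58 members on neither list, and in 35 of 27025 promoters in all (0.130%). The Hspa5 element lies 65 to 47 bases upstream, and the Hsp90b1 gene holds it at 2 places, 212 to 194 and 107 to 89 bases upstream, of which the nearer is shown, on the reverse strand. The stretches, from RefSeq on GRCm38.p6, are Hspa5 at chr2:34772000-34772089 (plus), Dnajc3 at chr14:118937802-118937931 (plus) and Hsp90b1 at chr10:86705445-86705574 (minus).
Hspa5: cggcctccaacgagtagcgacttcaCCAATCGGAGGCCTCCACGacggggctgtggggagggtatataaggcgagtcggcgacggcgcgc
Dnajc3: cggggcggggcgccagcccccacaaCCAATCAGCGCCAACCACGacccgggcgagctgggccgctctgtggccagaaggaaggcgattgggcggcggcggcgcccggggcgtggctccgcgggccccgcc
Hsp90b1: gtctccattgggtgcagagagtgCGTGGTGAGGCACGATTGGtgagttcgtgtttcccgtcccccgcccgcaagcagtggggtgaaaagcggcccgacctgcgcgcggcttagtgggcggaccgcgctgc

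Genes outside the members add context to both stress programs. Of 21 tested genes of the unfolded protein response and ER folding, 2 rose, 0 fell, 13 had positive fold changes and the median was 0.29. Among all genes tested, 2.40% rose, 5.30% fell and 44.3% had positive fold changes. Both skin values lay above the lymph node range in 5 of the 21 (Atf6, Ppp1r15a, Xbp1, Eif2ak3 and Creld2), against 16.8% of all genes. In 4 (Hyou1, Ddit3, Ern1 and Pdia4) both lay below it, against 33.5% of all genes. Atf6, the ER membrane factor that acts on the ER stress element, rose to 270.3 and 145 CPM in skin, against 31.4, 42.5 and 49.7 CPM in lymph node (log2 fold change 2.33, SE 0.43, adjusted p 0.0465). Ppp1r15a, which restores translation after stress and is also an early response gene, rose to 612 and 264 CPM in skin, against 10.4, 40.7 and 37.2 CPM in lymph node (log2 fold change 3.89, SE 0.71, adjusted p 0.0465). The groups did not overlap in either gene. Of 25 tested co-chaperones and prefoldin subunits, 0 passed edgeR's test (2 at an unadjusted p under 0.05), 9 had positive and 16 negative fold changes, and the median was -0.62. Stip1, which bridges Hsp70 and Hsp90, had 186 and 243 CPM in skin and 309, 252 and 234 CPM in lymph node, with overlap. Pfdn5, of the prefoldin that hands unfolded actin and tubulin to TRiC, had 183 and 162 CPM in skin and 340.02, 209.8 and 244 CPM in lymph node, without overlap (log2 fold change -0.62, SE 0.30, adjusted p 0.245).

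Immediate early genes, whose transcripts appear within minutes of stimulation and which are known to respond to cell isolation, changed in both directions. Of 25 tested, 6 rose (Fos, Nr4a1, Dusp1, Zfp36, Klf6 and Gadd45b) and 1 fell (Egr1), against 2.40% and 5.30% of all genes tested, and the median log2 fold change was 2.05. In 13 (52.0%, against 16.8% of all genes tested) both skin values lay above the lymph node range. In 7 both lay below (Egr1, Egr2, Egr3, Ier2, Btg2, Klf2 and Myc), that is 28.0%, which is under the 33.5% of all genes tested. Their summed level was 4090 and 4325 CPM in skin and 1660, 1694 and 1816 CPM in lymph node. Fos rose to 501 and 628 CPM in skin, against 6.11, 12.9 and 23.1 CPM in lymph node, whereas Egr1 fell to 5.80 and 6.39 CPM in skin, against 117, 74.2 and 100.2 CPM in lymph node. The part of cell isolation in the Hspa1a and Hspa1b values was not tested.

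Among the cytosolic Hsp70 and Hsp90 genes made at all times, 5 were tested, 0 passed, 1 had a positive and 4 negative fold changes, and the median was -0.15. Hsp90ab1, the constitutive Hsp90, was the most abundant member per kilobase of exon in both groups, at 799 CPM per kilobase in skin and 814 in lymph node. It had 2208 and 2586 CPM in skin and 2482, 2216 and 2622 CPM in lymph node. The groups overlapped (log2 fold change -0.03, SE 0.17, adjusted p 0.944). Hspa8, the constitutive Hsp70, had 247 and 138 CPM in skin and 306, 182 and 287 CPM in lymph node, with overlap (log2 fold change -0.43, SE 0.39, adjusted p 0.539). Hspa14, an Hsp70 tied to the ribosome, had 133 and 292 CPM in skin and 195, 243 and 271 CPM in lymph node, with overlap (log2 fold change -0.15, SE 0.40, adjusted p 0.856).

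The TRiC ring is built from 8 related subunits, each present once in every ring of the double barrel. Most of its genes had lower values in skin, although 0 passed edgeR's test. Of 8 subunits, 7 had negative fold changes, the median was -0.81, both skin values lay below every lymph node value in 6 (33.5% of all genes tested did so) and above in 1, and 4 had an unadjusted p under 0.05. Their summed level was 3557 and 3689 CPM in skin and 5823, 5503 and 5750 CPM in lymph node, a ratio of the means of 0.636. The signs of the 8 subunits were the same under the 3 other scalings of library size that were run.

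Cct8 and Cct5 came nearest to the threshold. Cct8 had 322 and 518 CPM in skin and 872, 962 and 938 CPM in lymph node (log2 fold change -1.14, SE 0.26, adjusted p 0.0551). Cct5 had 795 and 923 CPM in skin and 1501, 1192 and 1492 CPM in lymph node (log2 fold change -0.70, SE 0.19, adjusted p 0.0768). In both the groups were well apart. Tcp1 had 318 and 169.9 CPM in skin and 527, 405 and 458 CPM in lymph node (log2 fold change -0.92, SE 0.34, adjusted p 0.139). Cct7 had 694 and 464 CPM in skin and 905, 735 and 867 CPM in lymph node (log2 fold change -0.53, SE 0.25, adjusted p 0.228). Both skin values again lay below the lymph node range in these subunits, by a small gap in Cct7.

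In Cct3, Cct4 and Cct2, libraries of the same group stood far apart. Cct3 had 450.2 and 80.1 CPM in skin and 730.1, 627 and 642 CPM in lymph node, so skin library 2 was far below the rest (log2 fold change -1.33, SE 0.71, adjusted p 0.283). Cct4 had 178 and 164 CPM in skin and 179, 678 and 260.3 CPM in lymph node, and skin library 1 and lymph node library 1 were almost equal (log2 fold change -1.12, SE 0.62, adjusted p 0.298). Without lymph node library 2, the highest, its log2 fold change was -0.35. Cct2 had 202 and 692 CPM in skin and 636, 481 and 613 CPM in lymph node, with skin values on either side of the lymph node range (log2 fold change -0.37, SE 0.52, adjusted p 0.713). Without skin library 1 its log2 fold change was 0.26. Cct6a was the exception, with 598 and 678 CPM in skin and 473, 423 and 479 CPM in lymph node, both skin values above (log2 fold change 0.48, SE 0.18, adjusted p 0.157).

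Of the 50-base stretches of Cct6a, 15.4% occur in other genes, 11.0% in Psph, which lies over it on the other strand. Of those of Tcp1, a subunit with lower values in skin, 13.9% occur in other genes, 10.2% in Acat3, which lies over Tcp1 on the other strand. Cct8 overlaps Usp16 on the other strand, with 4.28% shared, and Cct5 shares none. Per kilobase of exon, Cct5 was the highest subunit in all 5 libraries. The spread between the highest and the lowest subunit was 6.77-fold and 26.5-fold in the skin libraries and 12.8-fold, 5.35-fold and 8.71-fold in the lymph node libraries. The exon length used joins the exons of all annotated transcripts, 2766 bases for Cct5 and 6370 for Cct3. Ranks and spreads per kilobase therefore depend on the annotation.

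**Figure D3:**
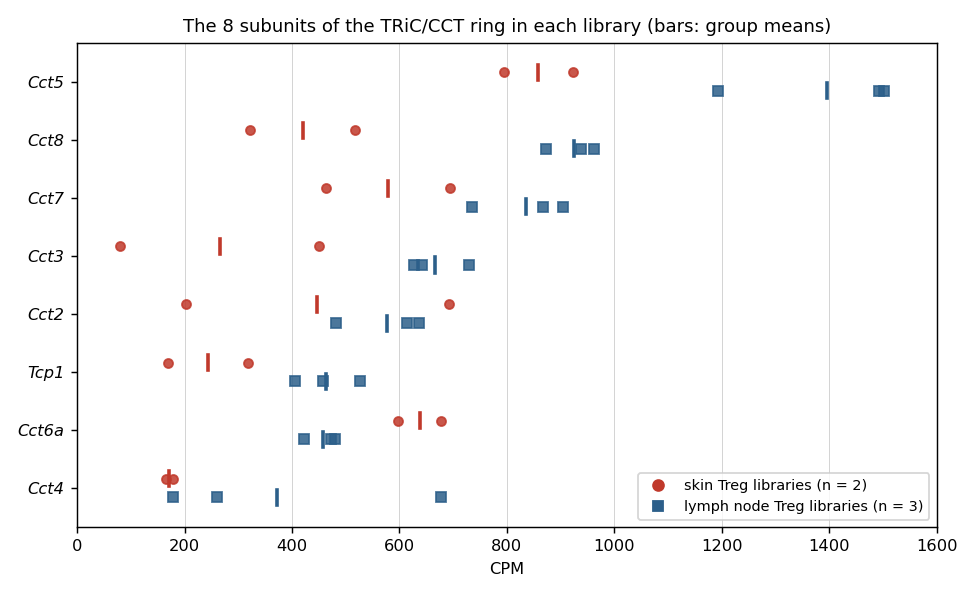
The horizontal axis gives CPM for the 8 subunits of the TRiC ring, with skin libraries as circles, lymph node libraries as squares and group means as bars. The skin circles lie left of the lymph node squares in 6 subunits, straddle them in Cct2 and lie right of them in Cct6a.

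The 3 members that fell in skin had almost no count there. Dnajb12 (chr10:59879556-59899302, plus strand) encodes a J protein of the ER membrane that works with cytosolic Hsp70 in the removal of misfolded membrane proteins. It had 1 and 0 counts in skin and 248, 370 and 201 counts in lymph node, or 0.0936 and 0 CPM in skin and 17.4, 29.0 and 13.7 CPM in lymph node. Every lymph node library was far above both skin libraries (log2 fold change -8.44, SE 1.64, adjusted p 0.0484). The lymph node level was 406 times the skin level, with a 95% counting interval of 72.7 to 16072, and the gene shares no 50-base stretch with another.

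Bag2 (chr1:33745484-33757795, minus strand) encodes a nucleotide exchange factor of Hsp70 that inhibits the ubiquitin ligase CHIP. It had no count in either skin library and 5.41, 11.3 and 6.79 CPM in lymph node. Against the limit that a count of 0 over the skin group allows (3 counts, 0.145 CPM), it was at least 54.0-fold lower in skin (adjusted p 0.0496). Dnajc17 (chr2:119172500-119208795, minus strand) encodes a J protein tied to splicing of messenger RNA. It had no count in either skin library and 7.66, 8.70 and 8.76 CPM in lymph node, at least 57.8-fold lower in skin (adjusted p 0.0484). Of its 50-base stretches 18.7% occur in other genes, and Zfyve19 and further genes overlap it on the other strand, so its count is uncertain.

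All 4 calls sit just under the threshold and end under several settings. Without lymph node library 1, 2 or 3, no gene of the whole table passed (0 members and 0 genes by edgeR, with 11 to 13 members and 2361 to 2485 genes at an unadjusted p under 0.05), and the adjusted p of Hspa1a was 0.113 to 0.115. Without skin library 1, edgeR called 9 of 81 members higher (11.1%) and 27 lower (33.3%), against 16.9% and 31.8% of all genes tested. Without skin library 2, it called 10 of 81 higher (12.3%) and 21 lower (25.9%), against 14.4% and 24.8% of all genes tested. These shares were near those of all genes or below them. With DESeq2, 3 members were higher (Hspa1a, Hspa1b and Cct6a) and 12 lower, against 10.8% higher and 17.7% lower among all genes tested. With limma-voom, 2 were higher (Hspa1a and Hspa1b) and 11 lower, against 4.95% higher and 14.6% lower among all genes tested. DESeq2 and limma-voom both gave Cct5, Cct8, Bag2, Bag3, Dnajb12, Dnajc17, Dnajb2, Dnajb7, Dnajc27 and Dnajc28 as lower. Upper-quartile scaling with edgeR added Cct8 to the 3 lower members.

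Several other J protein genes were without a count in skin and close to the threshold. Dnajc27, a small GTPase with a J domain, had 0 counts in skin and 4.64, 20.3 and 18.8 CPM in lymph node, at least 100.5-fold lower in skin (adjusted p 0.0514). Dnajc28 (at least 37.6-fold, adjusted p 0.0514), Dnajb2 (at least 28.4-fold, adjusted p 0.0533) and Dnajb7 (at least 29.9-fold, adjusted p 0.0670) had the same pattern and did not pass. Dnajc19, a part of the motor that pulls proteins into mitochondria, had 5.43 and 5.79 CPM in skin and 41.1, 43.9 and 35.2 CPM in lymph node (log2 fold change -2.83, SE 0.73, adjusted p 0.0658). Its libraries were close within each group and well apart between groups. Over the 10 mitochondrial chaperones and J proteins, 0 passed, 1 had a positive and 9 negative fold changes, and the median was -0.71. Both skin values lay below the lymph node range in 5 of the 10, against 33.5% of all genes tested. Of that list, Dnajc11, which is associated with the complex that shapes the inner membrane, had 112 and 68.0 CPM in skin and 43.3, 67.8 and 86.5 CPM in lymph node.

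In most of the other J proteins chosen by their CPM within their class, the groups overlapped. Dnaja2 had 219.9 and 322 CPM in skin and 257, 236 and 207 CPM in lymph node. Dnajc8, a J protein of the spliceosome, had 291 and 265 CPM in skin and 313, 179 and 286 CPM in lymph node. Dnajc7, which binds both Hsp70 and Hsp90, had 212 and 614 CPM in skin and 414, 369 and 434 CPM in lymph node. These overlapped in each case, with log2 fold changes of 0.21 (SE 0.27), 0.10 (SE 0.31) and 0.03 (SE 0.46), and adjusted p of 0.672, 0.878 and 0.978. Dnajc5, the cysteine string protein of secretory vesicles, had 65.0 and 288 CPM in skin and 142, 137 and 124 CPM in lymph node, 1 skin library below and 1 above (log2 fold change 0.40, SE 0.62, adjusted p 0.742). Dnaja3, a mitochondrial J protein, had 60.1 and 22.5 CPM in skin and 68.6, 44.8 and 73.9 CPM in lymph node. Dnajc15, of the mitochondrial inner membrane, had both skin values below the lymph node range, at 57.2 and 43.0 CPM in skin and 97.3, 61.0 and 76.0 CPM in lymph node (log2 fold change -0.64, SE 0.47, adjusted p 0.437). Dnajb13, known from sperm flagella and cilia, had 30.2 and 43.9 CPM in skin and 36.0, 16.6 and 26.3 CPM in lymph node, with overlap. Dnajc1, of the ER membrane, had 223 and 63.0 CPM in skin and 54.4, 46.2 and 61.8 CPM in lymph node, both skin values above, by a small margin in skin library 2 (log2 fold change 1.40, SE 0.59, adjusted p 0.194). Hspbp1, a nucleotide exchange factor of Hsp70, had 0 and 15.9 CPM in skin and 56.5, 50.1 and 56.6 CPM in lymph node, both skin values below (log2 fold change -2.78, SE 2.05, adjusted p 0.445), and Hspbap1 had 57.3 and 93.9 CPM in skin and 92.9, 96.3 and 108 CPM in lymph node, with overlap.

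The remaining BAG genes had no common direction. Bag5 had 49.8 and 178 CPM in skin and 96.0, 79.9 and 92.0 CPM in lymph node. Bag6, which shields hydrophobic tails of newly made membrane proteins, had 23.3 and 72.9 CPM in skin and 31.3, 34.0 and 31.7 CPM in lymph node. In both, skin library 1 was the lowest and skin library 2 the highest of the 5. Bag1 had 17.1 and 27.6 CPM in skin and 33.2, 15.0 and 23.4 CPM in lymph node, and Bag4 had 0 and 1.20 CPM in skin and 6.67, 9.09 and 9.72 CPM in lymph node. Bag1 overlapped, Bag4 was lower in both skin libraries, and neither passed (adjusted p 0.955 and 0.246).

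The heat shock factors were both present. Hsf1, the main switch of the heat shock response, had 2.81 and 49.5 CPM in skin and 13.6, 44.1 and 24.8 CPM in lymph node, so the skin libraries were the lowest and the highest (log2 fold change -0.07, SE 1.28, adjusted p 0.979). Hsf2, which forms mixed trimers with Hsf1, had 12.2 and 34.9 CPM in skin and 7.94, 11.2 and 7.20 CPM in lymph node. Both of its skin values lay above the lymph node range, by a small margin in skin library 1, without passing the test (log2 fold change 1.42, SE 0.86, adjusted p 0.349). Of the small heat shock protein genes, Hspb6 had 35.8 and 0 CPM in skin and 2.32, 2.74 and 3.60 CPM in lymph node, and Hspb11, a part of the transport machinery of cilia, had 22.8 and 50.4 CPM in skin and 24.3, 14.8 and 17.1 CPM in lymph node. Hspb6 was high in 1 skin library and without a count in the other, Hspb11 overlapped, and neither passed (adjusted p 0.483 and 0.456). Hspb9 had no count in skin and 0.843, 0.862 and 0.679 CPM in lymph node (adjusted p 0.0768).

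The skin libraries disagreed with each other on the chaperone genes far more than the lymph node libraries did. The median difference between the skin libraries was 1.14 on the log2 scale over the 79 tested members, against 0.30 to 0.40 for pairs of lymph node libraries. More than 4-fold separated the skin libraries in 24 members (30.4%), 13 of them higher in skin library 1 and 11 in skin library 2, against 5 to 8 members (6.33 to 10.1%) for pairs of lymph node libraries. Over all genes tested, the median difference between the skin libraries was 1.18, and 37.7% were more than 4-fold apart. The members were thus no more discordant between the skin libraries than genes at large. Hspa9, the mitochondrial Hsp70, had 70.5 and 0.200 CPM in skin and 50.6, 90.5 and 40.8 CPM in lymph node. Hspa13, an Hsp70 of the microsomes, had 0 and 61.1 CPM in skin and 31.5, 31.2 and 27.1 CPM in lymph node. Each of these was near its lymph node level or above it in 1 skin library and all but missing in the other.

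Relative to the lymph node mean, 11 members departed by more than 2-fold in opposite directions in the skin libraries. Hspa1a and Hspa1b were the 2 members more than 2-fold up in both, 18 were more than 2-fold down in both, and 23 were within 2-fold in both. These counts were not made over all genes tested, so they do not set the members apart from genes at large. Of the 53 members with at least 20 CPM in lymph node, 7 (13.2%) were under 1 CPM in a skin library. They were Dnajc24, Hspbp1 and Hspa13 in skin library 1 alone, Dnaja4, Hspa9 and Dnajc18 in skin library 2 alone, and Dnajb12 in both. Among all genes at that lymph node level the share was 20.6% of 6660. The skin libraries also held fewer detected genes, as given above, and the part of that in the low chaperone values was not tested.

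**Figure D4:**
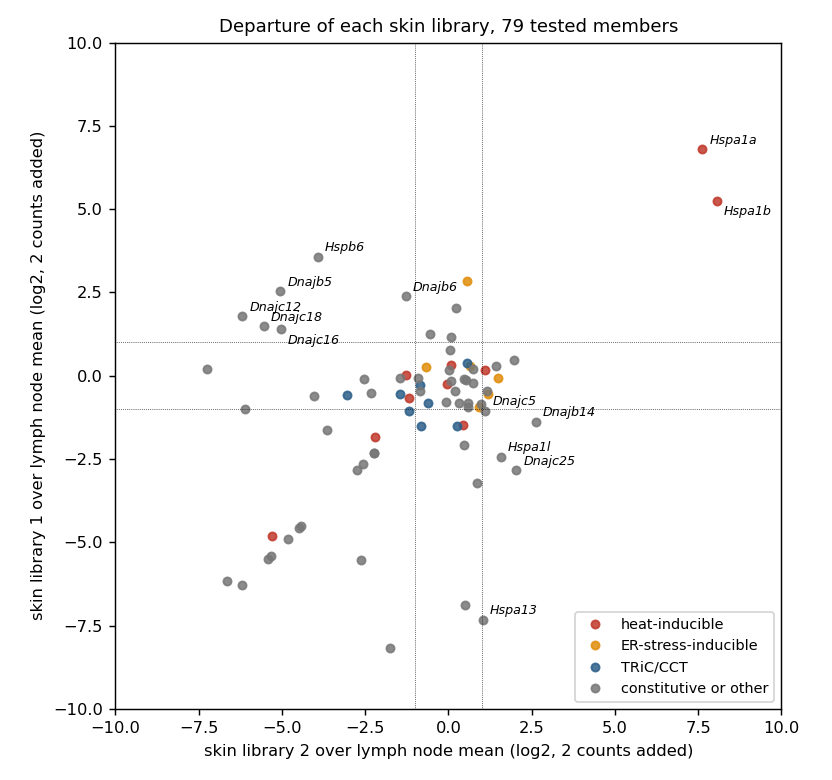
The axes give the departure of skin library 1 (vertical) and skin library 2 (horizontal) from the lymph node mean, as log2 ratios with 2 counts added, for the 79 tested members, with dotted lines at 2-fold. Hspa1a and Hspa1b lie alone in the upper right, a tail of genes lies low in both libraries, and the 11 named genes in the other corners departed in opposite directions.

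Many members share sequence with other genes, which bears on how much of their RNA the table holds. The HTSeq summary line for alignments that were not unique held 64.5 to 65.4% of all counts in the skin libraries and 66.7 to 72.0% in the lymph node libraries. A read with several alignments may enter that line more than once, so these are not shares of reads. Of the 92 members, 38 share no 50-base stretch with another gene, 40 share some but under 20%, and 14 share 20% or more. In 9 of these 14 the gene that shares most lies elsewhere. Hsp90aa1 shares 47.5%, Hspd1 42.1%, Hspa8 39.4% and Hspe1 22.8%, with partners that include Gm12346 for Hsp90aa1, Hspd1-ps3 for Hspd1 and Gm15459 for Hspa8, while Hspa5 shares none and Hsp90ab1 3.44%. In the other 5 (Hspa1l, Dnaja4, Dnajb8, Dnajc30 and Hspb2) it is a gene over the same place on the other strand, as Gm10501 is for Hspa1l at 71.4%, so their counts are uncertain where strand was not used. The levels of the 9 are therefore undercounted to an unknown degree in skin and lymph node alike, and their ranks against other members are uncertain.

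**Figure D5:**
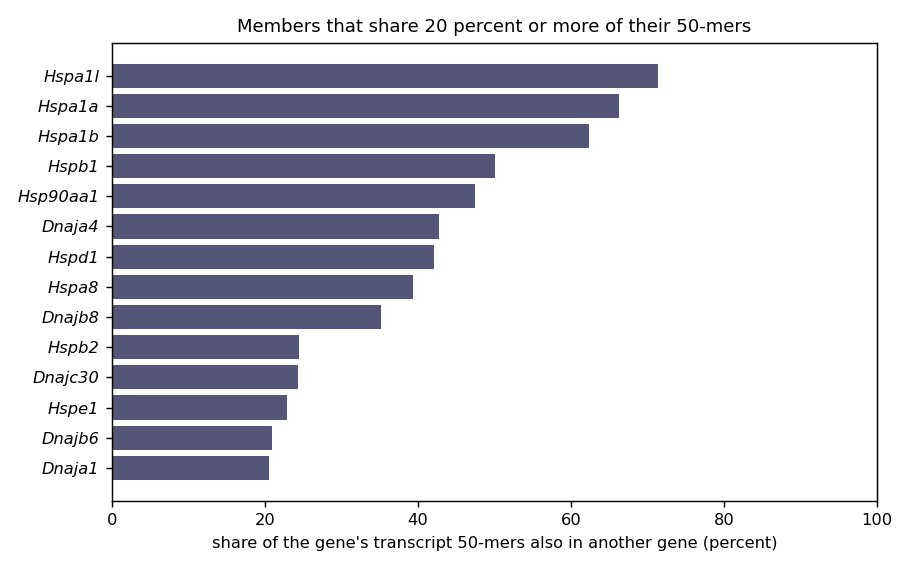
The horizontal axis gives the share of each gene's 50-base transcript stretches that also occur in another gene, for the 14 members at 20% or more. Hspa1l, Hspa1a and Hspa1b are at the top, with more than 60% shared, and Dnaja1 is the lowest shown at 20.6%.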

How the data were processed

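Per the labels' protocols, the sorted cells were frozen, their RNA was column-purified, and a SMARTer kit for very low input amplified it as cDNA. The submitters' processing notes name HTSeq 0.6.1, SAMtools 0.1.19.0, TopHat2 2.0.12, Bowtie2 2.1.0.0, CASAVA 1.8.2 and the build mm10. No source used here gives the options or the strandedness. Values deposited by the authors are whole-number counts per gene symbol without normalization, 1 column per library. The header is shifted by 1 cell and was read so. The 5 HTSeq summary lines entered neither library sizes nor tests, and genes held 21.1 to 21.7% of all counts in the skin libraries and 19.3 to 21.3% in the lymph node libraries.

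The 92 members and all gene lists were chosen with earlier results of these data known, so no list is independent evidence. Counts were analysed with edgeR 4.0.16 in R 4.3.3, with filterByExpr (minimum count 10, 11437 genes), TMM scaling and the quasi-likelihood F test of skin (n = 2) over lymph node (n = 3), adjusted by Benjamini-Hochberg over all tested genes, threshold 0.05. The common dispersion was 0.843. The SE is the size of the log2 fold change divided by the square root of F. With 2 and 3 libraries, the smallest two-sided p of an exact permutation test is 0.1, so none is given. No pair of libraries held near-identical counts. Alternatives were RLE, upper-quartile and total-count scaling, no filter, a filter of 5 CPM in 2 libraries, DESeq2 1.42.0, limma-voom (limma 3.58.1), a replicate block, and leaving out each library. Functions were tested on simulated data, where recovery of set changes was required only at a dispersion far below that of these data. That test does not give the power at the observed spread.

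Members described one by one are those past the threshold, every tested heat-inducible, ER-stress-inducible, TRiC, BAG and heat shock factor gene, and the 3 with the highest mean CPM in each of 7 classes (Hsp70 and Hsp110, Hsp90, small heat shock proteins, the mitochondrial list, Dnaja, Dnajb and Dnajc). Of the co-chaperone and unfolded protein response lists, genes past the threshold are named, or the 2 with the highest mean CPM where none passed. The unfolded protein response genes without overlap between the groups are also named, which was decided after their values were seen. Hspa9, Hspa13, Dnajc19, Dnajc27, Dnajc28, Dnajb2, Dnajb7, Hspb1, Hspb8, Dnajc1, Hspbp1, Hspbap1 and the immediate early and marker genes were chosen after their values were seen. Folds against a group at 0 use a floor of 3 counts over the group, and ratios on 1 count have an exact 95% Poisson interval. Both describe counting error alone, because amplified copies were not marked with molecular identifiers and are not independent. Positions, exon lengths and shared 50-base stretches come from GENCODE M21 (GRCm38, which is mm10), matched by symbol, and 75 of 92 members matched a RefSeq promoter. Exon length is the union of the exons of all annotated transcripts of a gene, so levels per kilobase depend on the annotation.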

Additional observations from a re-analysis of the deposited data

How the results depend on the processing

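The median log2 fold change of all genes was -0.27 on total counts, -0.17 with RLE and -0.37 with upper-quartile scaling, against -0.21 with TMM. All genes called numbered 315 with no filter, 3262 with DESeq2, 2231 with limma-voom and 21 with the replicate block. Members called higher and lower numbered 0 and 0 with no filter (16 at an unadjusted p under 0.05), 3 and 12 with DESeq2, and 2 and 11 with limma-voom. The stricter filter gave 6 lower. Leaving out 1 library, all genes called ranged from 0 to 6065, members called higher from 0 to 10 and members called lower from 0 to 27. The cause of these shifts was not tested.

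The replicate block gave 0 members higher and 0 lower (2 members and 772 genes at an unadjusted p under 0.05). The deviations from the group means of libraries with the same number correlated at -0.0252 and -0.0236. With 2 skin libraries these deviations are mirror images of each other, so the values cannot show whether libraries were paired. The labels name no shared animal.

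Signs turned in these genes. Dnajc7 was -0.15 with upper-quartile scaling, -0.039 on total counts, -0.19 with limma-voom and -0.11 with the block. Dnajc8 was -0.050 with upper-quartile scaling. Hsp90ab1 was 0.019 with RLE, 0.019 with DESeq2 and 0.027 with the block. Dnajc5 was -0.027 with the block, and Hspb6 was -1.12 with limma-voom and -0.84 with the block. Leaving out 1 library, log2 fold changes ranged from -0.48 to 0.22 for Bag1, -0.85 to 0.99 for Bag5, -0.48 to 1.17 for Bag6, -1.52 to 0.26 for Cct2, -0.092 to 0.46 for Dnaja2, -1.48 to 0.45 for Dnajb1, -0.072 to 1.49 for Dnajb11, -0.95 to 0.92 for Dnajc10, -0.56 to 1.18 for Dnajc3, -1.05 to 1.10 for Dnajc5, -0.94 to 0.59 for Dnajc7, -0.10 to 0.26 for Dnajc8, -3.29 to 0.84 for Hsf1, -0.15 to 0.078 for Hsp90ab1, -0.84 to 0.30 for Hspa14, -0.69 to 0.25 for Hspa5, -8.23 to 3.62 for Hspb6 and -1.29 to 0.026 for Hsph1. Over the 47 genes and 13 alternatives, 516 values kept direction and side of the threshold, 36 passed it newly, 20 no longer passed and 34 changed sign, and 5 combinations gave no value (Hspb6 and Hspb9). With 2 skin libraries, a lone remaining skin library is assumed to vary like the others. Outliers could not be tested in groups this small.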
